A study of Homo sapiens with 5 samples.

Results

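The genes encoding receptors of the transforming growth factor β (TGFβ) superfamily were examined for PHF8 binding in melanoma cells. The 10 genes are members of the family but not all of it, and comprise 4 type I kinase receptors (TGFBR1, ACVR1, ACVR1B and BMPR1A), 4 type II kinase receptors (TGFBR2, ACVR2A, ACVR2B and BMPR2) and 2 co-receptors (TGFBR3 and ENG), out of 64476 annotated genes of which 20175 are protein-coding. For each of them, PHF8 peaks were taken within 1 kb of the transcription start site (TSS) of any annotated transcript, which is called the promoter here, and over the whole gene record. PHF8 was mapped by chromatin immunoprecipitation sequencing (ChIP-seq) in SKMEL-147, an established human melanoma line, in 3 replicates labelled A, B1 and B2, with 2 input chromatin libraries labelled A and B. All 5 libraries come from the same cell line under one condition. The series design describes a PHF8 loss-of-function model made in this line with guide RNAs, but the labels do not say which guide, if any, the cells of these libraries carried. The antibody is a commercial anti-PHF8 product, and no ChIP from cells lacking PHF8 was analysed here. B1 and B2 share a letter that 1 input also bears, and no source used here says whether the replicates were separate cultures, so the spread between them may be partly technical.

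TGFβ superfamily ligands are dimers that bring together type II and type I receptors at the cell surface. The type II receptor is constitutively active as a serine/threonine kinase and phosphorylates the type I receptor, which in turn phosphorylates SMAD proteins that carry the signal to the nucleus. Co-receptors bind ligand and present it to the kinase receptors without signaling through a kinase domain of their own. PHF8 is a Jumonji C histone demethylase whose PHD finger reads trimethylated lysine 4 of histone H3, a mark of active promoters, and which removes repressive methyl marks, and the study examined its part in melanoma metastasis.

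The sequences under the PHF8 summits are shown first, since the positions of these summits carry much of what follows. They were read from GRCh37 (hg19), 5′ to 3′ on the sense strand of each gene, with CpG dinucleotides in capitals. The first set gives the point of strongest PHF8 enrichment in replicate A at the type I receptor for TGFβ, TGFBR1 (chr9:101867518-101867546, coding exon), at its partner TGFBR2 (chr3:30648244-30648272, UTR), at the gene ranked highest, BMPR1A (chr10:88515999-88516027, upstream of the gene record), and at both co-receptors, ENG (chr9:130616831-130616859, UTR) and TGFBR3 (chr1:92351633-92351661, UTR).
TGFBR1 summit: CGgctgctcctcctCGtgctggCGgCGgc
TGFBR2 summit: ggccCGcacatctgCGctgcCGgccCGgc
BMPR1A summit: CGttccatCGCGtgctacctaCGgCGtct
ENG summit: cCGcccatccttCGgacagcaactccagc
TGFBR3 summit: agtgaaggagggcagtCGgCGgctctCGc

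The second set shows 101 bp at 2 summits that lie away from the first exon. The ACVR2A summit (chr2:148601647-148601747) lies upstream of every annotated ACVR2A transcript, and the ACVR2B summit of replicate A (chr3:38496748-38496848) lies in an intron. They hold 11 and 10 CpG dinucleotides.
ACVR2A summit: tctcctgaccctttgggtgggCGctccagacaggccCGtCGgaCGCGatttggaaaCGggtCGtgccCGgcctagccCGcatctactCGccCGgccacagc
ACVR2B summit: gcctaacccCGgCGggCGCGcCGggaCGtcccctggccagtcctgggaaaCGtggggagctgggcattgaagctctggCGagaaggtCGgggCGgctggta

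The third set shows the whole stretch between the first TSS of a receptor gene and the TSS of a long noncoding RNA (lncRNA) on the opposite strand, at BMPR1A (chr10:88516056-88516352, 297 bp) and at BMPR2 (chr2:203240866-203241049, 184 bp). Both stretches lay inside a single PHF8 peak in all 3 replicates. The BMPR1A stretch was 81.8% GC with 46 CpG dinucleotides and 5 GC boxes, and the BMPR2 stretch was 77.7% GC with 27 CpG dinucleotides and 1 GC box (GGGCGG on either strand).
BMPR1A divergent stretch: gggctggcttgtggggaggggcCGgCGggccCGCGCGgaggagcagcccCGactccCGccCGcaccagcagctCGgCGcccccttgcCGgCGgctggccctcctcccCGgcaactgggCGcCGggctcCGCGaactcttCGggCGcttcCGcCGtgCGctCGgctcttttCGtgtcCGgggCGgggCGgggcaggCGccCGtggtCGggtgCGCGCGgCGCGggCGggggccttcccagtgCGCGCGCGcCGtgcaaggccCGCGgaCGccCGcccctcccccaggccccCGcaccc
BMPR2 divergent stretch: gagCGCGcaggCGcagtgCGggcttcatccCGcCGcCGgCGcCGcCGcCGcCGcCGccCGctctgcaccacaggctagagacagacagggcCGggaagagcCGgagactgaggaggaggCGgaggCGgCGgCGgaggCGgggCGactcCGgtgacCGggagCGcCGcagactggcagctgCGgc

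The authors called peaks in each replicate separately against input. The lists held 21506, 20882 and 20120 peaks in A, B1 and B2. Each peak carries a fold enrichment, the height of the ChIP signal over the expected background at its summit, with the same constant added to both. From it and the p-value, the number of fragments was recovered as a whole number for 100% of peaks. The median summit held 54, 39 and 40 fragments, and the weakest called summits held 8, 8 and 10. Weaker binding is absent from the lists. Calling also depends on the background, so these counts are not a fixed limit of detection. Intervals on fragments are 95% exact Poisson intervals and cover counting error only. Fold enrichment ran higher in A than in B1 and B2 over all target genes (median 32.4, 18.8 and 17.7), so genes were ranked within each replicate and the percentiles were averaged. Series of 3 values follow the order A, B1, B2. Among lineage genes, MITF, SOX10 and PMEL of 6 melanocyte genes had a promoter peak in all 3 replicates, and MLANA, TYR and DCT had none. Of 4 genes of other lineages (ALB, CD3E, PTPRC and KRT5), 0 had one. Over all protein-coding genes the share was 60.2%. These short lists were not tested, and a promoter peak is not a measure of expression.

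PHF8 was found at the promoters of 9 of the 10 receptor genes in all 3 replicates. The same held for 25.7% of all annotated genes and 60.2% of protein-coding genes. The exception was TGFBR3, which had promoter peaks in A and B1 and none in B2, a pattern of 1 or 2 replicates that 2.74% of protein-coding genes showed. Without replicate B2 all 10 genes counted as bound. The strongest promoter peak of each receptor gene was then compared with those of the 16541 genes bound in all 3 replicates, called target genes here. This set is larger than the list of PHF8 targets that the study reports under a similar rule. The reason was not tested, and percentiles refer to the set used here. Mean percentiles ran from 5.48 for TGFBR3 to 89.2 for BMPR1A, with a median of 62.4 over the 10 genes (64.6 over the 9 bound in every replicate), where all target genes have a median of 50 by construction. Of the 10, 6 had a mean percentile above 50 and 2 above 75.

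**Figure D1:**
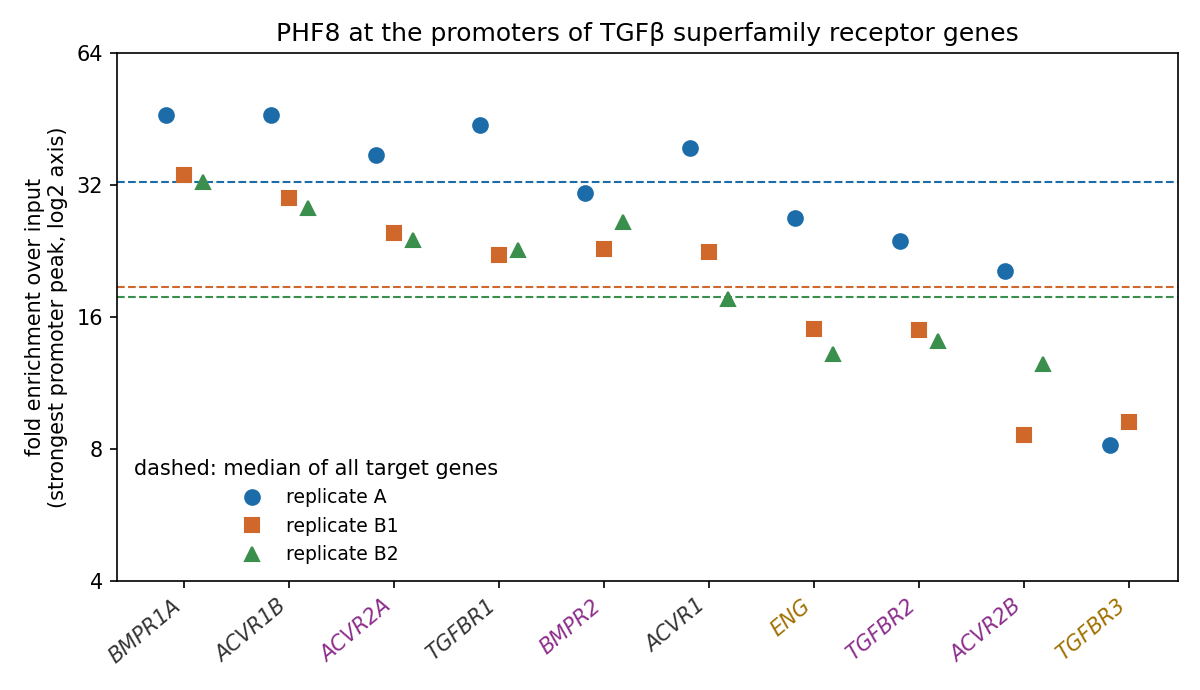
Fold enrichment over input of the strongest promoter peak (log2 axis) for the 10 receptor genes in replicates A (circles), B1 (squares) and B2 (triangles), with type I receptors named in black, type II in purple and co-receptors in ochre; dashed lines mark the median of all target genes in each replicate. BMPR1A, ACVR1B, ACVR2A and TGFBR1 lie above the median line in every replicate, and TGFBR3 has no point in B2.

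The 2 highest places in the family went to type I receptors. BMPR1A, a receptor for bone morphogenetic proteins (BMPs), reached fold enrichments of 46.2, 33.6 and 32.5, a mean percentile of 89.2 ± 7.03 (SD, n = 3). ACVR1B, the activin and Nodal receptor also known as ALK4, gave 46.2, 29.9 and 28.3, a mean percentile of 85.0 ± 3.33 (SD, n = 3). Both genes lay above the 80th percentile in every replicate, and in A their summits held the same number of fragments, 138 (95% interval 116 to 163).

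TGFBR1, also known as ALK5, is the type I receptor through which TGFβ itself signals. Its strongest peak (chr9:101866704-101868217 in A) showed fold enrichments of 43.8, 22.2 and 22.8, highest in A like the median target. The mean percentile was 70.2 ± 6.42 (SD, n = 3), and all 3 replicates lay above the median target. Its summits held 160 fragments (136 to 187), 86 (68.8 to 106) and 92 (74.2 to 113), and ranked by fragments in place of fold enrichment the mean percentile was 83.9. The expected background at the TGFBR1 summit was 2.68, 2.92 and 3.08 fragments. A low quantile of the background over all called summits was 1.57, 1.93 and 2.04. The TGFBR2 summit also lay above that quantile, at 2.26, 2.47 and 2.62 fragments. ACVR1, or ALK2, which serves BMP ligands, had fold enrichments of 38.9, 22.5 and 17.6 and a mean percentile of 60.1 ± 9.39 (SD, n = 3). It lay above the median target in A and B1 and marginally below it in B2, at a percentile of 49.2.

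Type II receptors spanned a wider range. ACVR2A, which binds activins and several BMPs, had fold enrichments of 37.4, 24.9 and 24.0 and a mean percentile of 70.2 ± 6.70 (SD, n = 3). BMPR2, the type II receptor for BMPs that is mutated in heritable pulmonary arterial hypertension, gave 30.7, 22.8 and 26.3. Its percentiles of 45.6, 66.2 and 82.2, lowest in A, were the most scattered of the family, with a mean of 64.6 ± 18.3 (SD, n = 3), so its place among the 10 is poorly fixed. TGFBR2, the type II receptor that binds TGFβ and recruits TGFBR1, had fold enrichments of 23.9, 15.0 and 14.1 and a mean percentile of 32.5 ± 3.03 (SD, n = 3), below the median target in every replicate. ACVR2B, the closest relative of ACVR2A, gave 20.3, 8.63 and 12.5, a mean percentile of 20.3 ± 7.96 (SD, n = 3), the lowest of the kinase receptors.

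The co-receptors lay in the lower part of the order. ENG (endoglin), a co-receptor known for its role in endothelial cells, had fold enrichments of 26.9, 15.0 and 13.2 and a mean percentile of 34.0 ± 3.02 (SD, n = 3). TGFBR3 (betaglycan), which presents TGFβ2 to TGFBR2, was enriched 8.18-fold in A and 9.21-fold in B1. Its summits held 20 fragments in A (12.2 to 30.9) and 26 in B1 (17.0 to 38.1), at the percentiles 2.88 and 13.6, near the bottom of the target genes. In B2, 0 peaks overlapped the TGFBR3 gene record. The weakest summit called anywhere in that list held 10 fragments, which is not a fixed limit of detection.

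**Figure D2:**
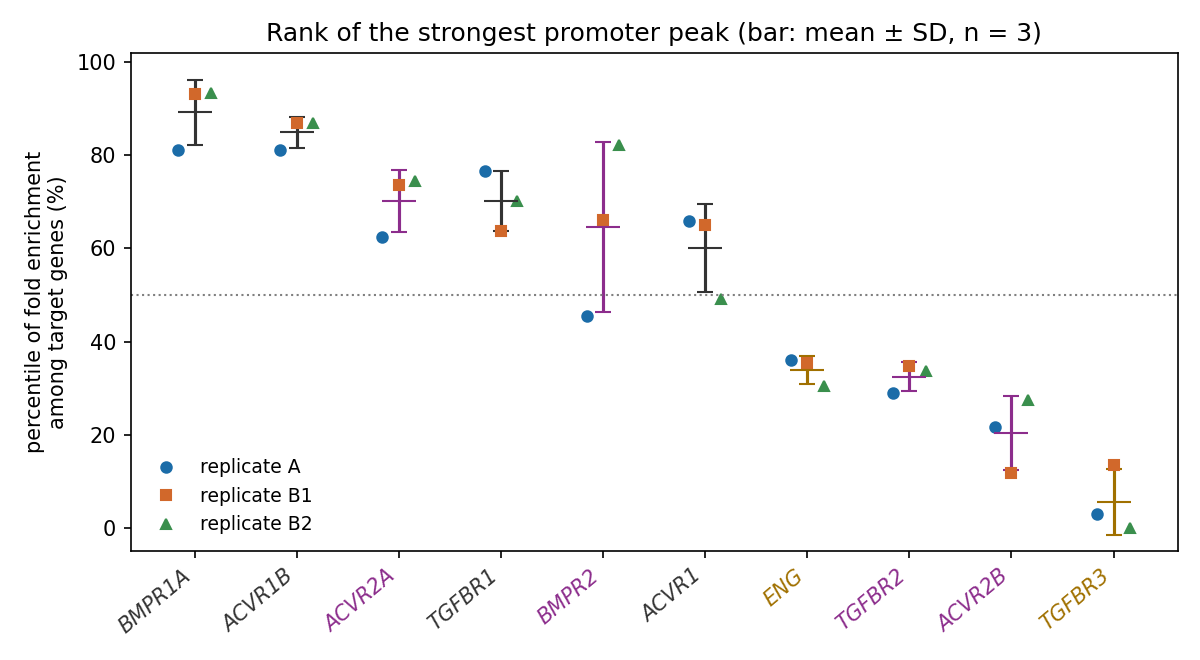
Percentile of each receptor gene's strongest promoter peak among all target genes of the same replicate, with the 3 replicates as points and the mean ± SD (n = 3) as bars; TGFBR3 is set at 0 in B2, where it had no peak, and the dotted line marks the 50th percentile. BMPR2 has the longest bar, and ENG and TGFBR2 lie side by side below the line.

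Neighbours in this order were compared by their difference in log2 fold enrichment within each replicate. The mean difference exceeded its SD over the 3 replicates for ACVR1B over ACVR2A (0.27 ± 0.03, higher in 3 of 3 replicates), ACVR1 over ENG (0.51 ± 0.08, 3 of 3), TGFBR2 over ACVR2B (0.40 ± 0.34, 3 of 3) and BMPR1A over ACVR1B (0.12 ± 0.11, higher in B1 and B2 and tied in A). It did not exceed its SD for ACVR2A and TGFBR1 (0.00 ± 0.20), TGFBR1 and BMPR2 (0.09 ± 0.38), BMPR2 and ACVR1 (0.09 ± 0.46) or ENG and TGFBR2 (0.03 ± 0.14), so these neighbours cannot be ranked. The steps below ACVR1B, below ACVR1 and below TGFBR2 thus had the same direction in 3 of 3 replicates, but the fragment intervals of the neighbours lay apart in 0, 1 and 0 of them. The last pair, ACVR2B and TGFBR3, has no value in B2, and TGFBR3 was the higher of the pair in B1. Neighbours were picked by their levels. A two-sided exact permutation test that flips the signs of the 3 differences gave no p-value below 0.25 for any pair with 3 values. With 3 replicates it can give none lower, so it cannot separate neighbours.

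TGFBR1 and TGFBR2 form one signaling complex and were compared directly. Enrichment at TGFBR1 exceeded that at TGFBR2 by 0.87, 0.57 and 0.69 on the log2 scale, a mean of 0.71 ± 0.15 (SD, n = 3). A two-sided exact permutation test that flips the signs of the 3 differences gave p = 0.25, the smallest value that this test can give with 3 replicates, and the difference had the same direction in 3 of 3 replicates. The fragment counts of TGFBR2, 77 (60.8 to 96.2), 51 (38.0 to 67.1) and 50 (37.1 to 65.9), had intervals that did not overlap those of TGFBR1 in any replicate. Taking the 4 type I and the 4 type II receptors together, the median fold enrichment was 45.0 against 27.3 in A, 26.2 against 18.9 in B1 and 25.6 against 19.0 in B2. The difference of medians was 0.73, 0.49 and 0.47 on the log2 scale, a mean of 0.56 ± 0.15 (SD, n = 3). In A the lowest type I receptor (ACVR1, 38.9) lay above the highest type II receptor (ACVR2A, 37.4). In B1 and B2 the classes overlapped, with ACVR2A and BMPR2 above ACVR1, and no test was made over genes. Further type I receptors outside this set, ACVR1C and BMPR1B, had fold enrichments below the type II medians in every replicate, and ACVRL1 had no promoter peak.

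The strongest summit lay downstream of the TSS at some bound receptor genes and well upstream at others, and the replicates disagreed at ACVR2B. Downstream summits in all 3 replicates were found at 5 of the 9 bound genes, TGFBR1, ACVR1, ACVR1B, TGFBR2 and ENG, against 55% of protein-coding targets. The TGFBR1 summit fell 100, 100 and 98 bp downstream of its nearest TSS in A, B1 and B2. The ACVR1B summit fell at 45, 53 and 49 bp, the ENG summit at 70, 105 and 62 bp, the ACVR1 summit at 123, 104 and 132 bp and the TGFBR2 summit at 165, 210 and 208 bp. Replicates thus placed each of these summits within 45 bp of one another.

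Upstream summits in all 3 replicates were found at BMPR1A, ACVR2A and BMPR2, 3 of 9 against 23.1% of protein-coding targets. The BMPR1A summit lay 340, 336 and 364 bp upstream of the nearest BMPR1A TSS, the ACVR2A summit 389, 407 and 386 bp upstream, and the BMPR2 summit 387, 357 and 401 bp upstream. All 3 were thus more than 250 bp upstream in every replicate, which held for 9.48% of protein-coding targets; this bound was chosen after the values were seen. At ACVR2A the canonical TSS is the most downstream of 4 bound TSSs, and the summits lay 901, 919 and 898 bp upstream of it.

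At ACVR2B the replicates did not place the summit alike. The strongest summit lay 1417 and 1432 bp downstream of the canonical TSS in A and B1, in an intron, and 261 bp downstream in B2, in a UTR, although the peaks of the 3 replicates covered nearly the same span (1599, 1629 and 1599 bp). The nearest ACVR2B TSS was 988 and 1003 bp upstream of the summit in A and B1 and 168 bp downstream of it in B2, so in B1 the summit itself was outside every ACVR2B window. ACVR2B was not counted as bound when the summit itself had to lie in a promoter window, nor when a fold enrichment above 10 was required (8.63 in B1).

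**Figure D3:**
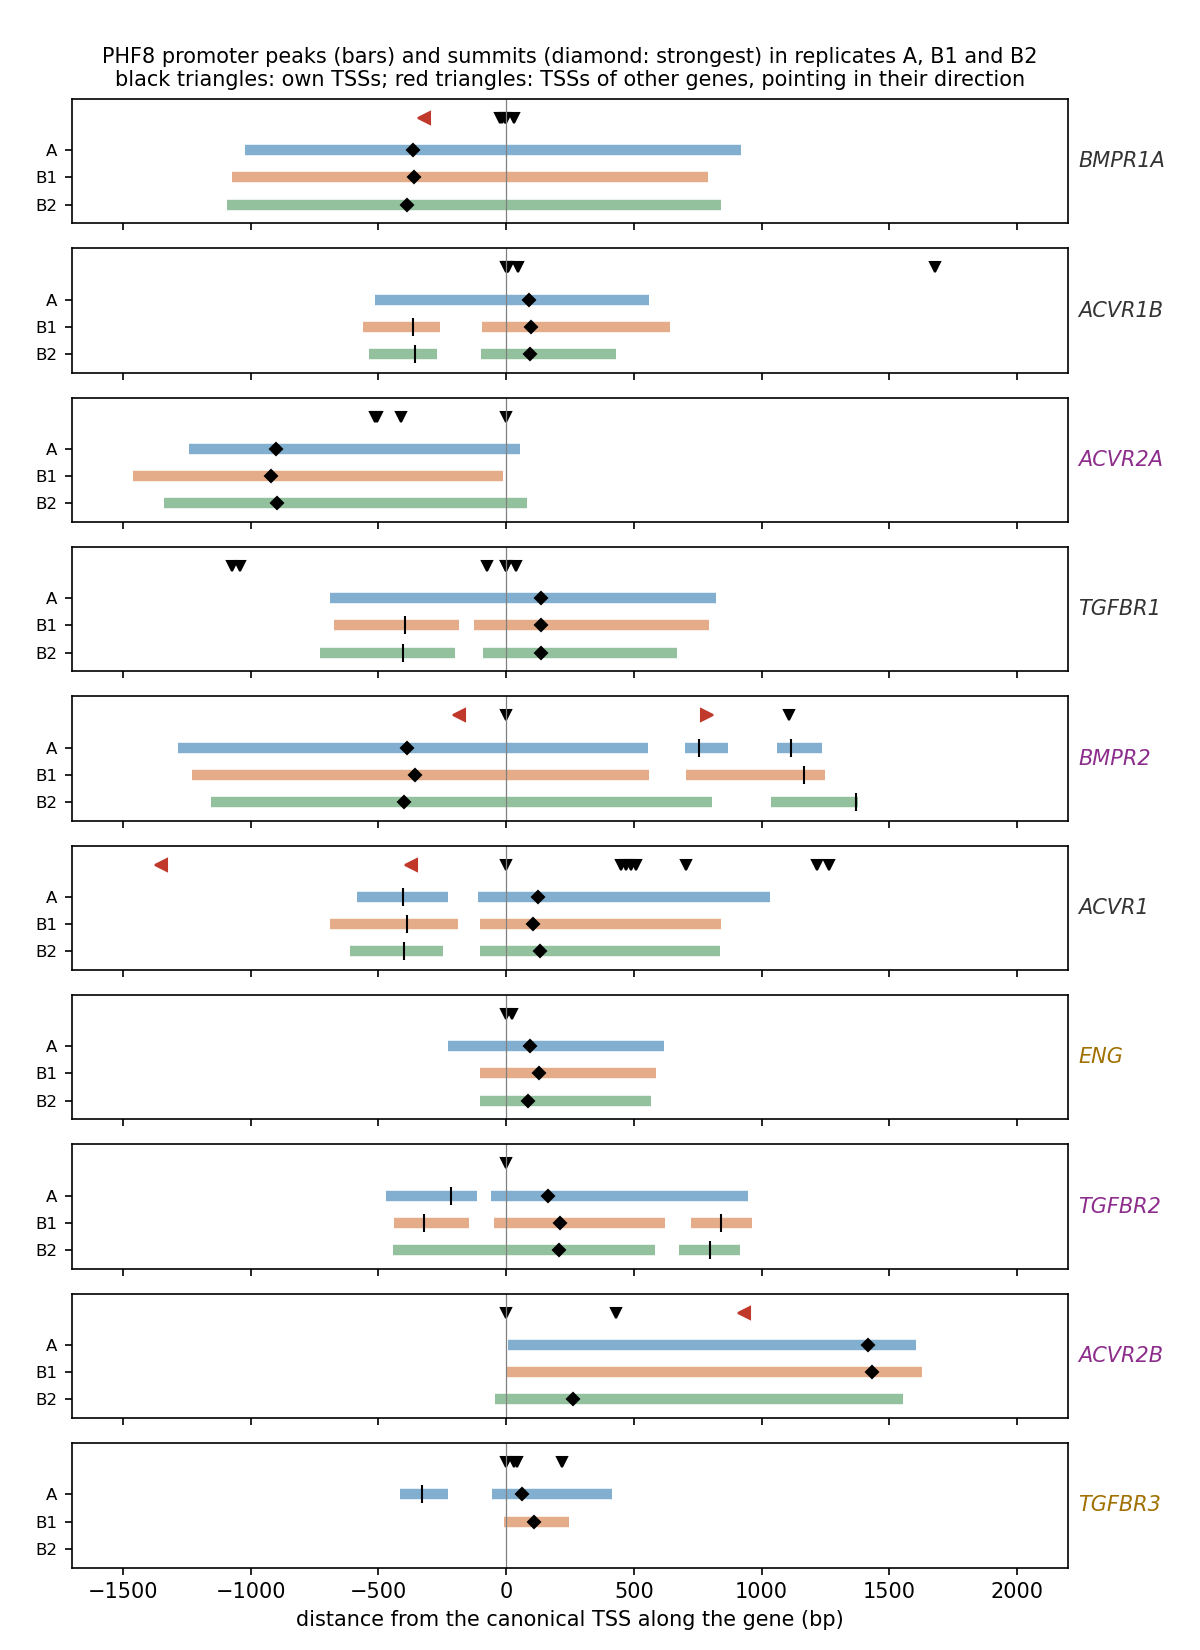
PHF8 promoter peaks of the 10 receptor genes in replicates A, B1 and B2, drawn as bars by distance from the canonical TSS along the gene in bp, in the order of mean percentile; diamonds mark the strongest summit, ticks the summits of further peaks, black triangles the gene's own TSSs and red triangles the TSSs of other genes. The diamonds lie left of the black triangles at BMPR1A, ACVR2A and BMPR2 and right of the first TSS at ACVR1B, TGFBR1, ACVR1, ENG and TGFBR2.

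Several receptor promoters are shared with other genes. BMPR1A has a lncRNA TSS (ENSG00000272631) on the opposite strand 321 bp upstream of its canonical TSS, BMPR2 has one (ENSG00000273456) 185 bp upstream, and ACVR1 has the TSS of UPP2, a uridine phosphorylase gene, 372 bp upstream and that of a lncRNA (ENSG00000270557) 1353 bp upstream. ACVR2B overlaps its antisense lncRNA ACVR2B-AS1, whose TSS lies 930 bp downstream. BMPR2 further contains the TSS of a protein-coding record on its own strand (ENSG00000289490) 785 bp downstream. The windows of all of these met a receptor promoter peak in 3 of 3 replicates, and the other 6 receptor genes shared none.

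The upstream summits of BMPR1A and BMPR2 lay just inside the divergent lncRNA records. Measured along the lncRNA, the BMPR1A summit was 42, 38 and 66 bp downstream of the lncRNA TSS and the BMPR2 summit 202, 172 and 216 bp downstream. In both genes the summit was nearer to the opposite-strand TSS than to any TSS of the receptor in every replicate, which 13.1% of protein-coding targets showed and 42.9% of those with an upstream summit; this count was added after the positions were seen. ACVR2A, with a summit equally far upstream, had no such neighbour. ACVR1 had a separate peak in each replicate that lay 31, 16 and 27 bp downstream of the UPP2 TSS, with fold enrichments of 13.5, 15.2 and 11.7, below the 38.9, 22.5 and 17.6 of the peak on the ACVR1 side. A peak between divergent TSSs cannot be assigned to one of the genes from these lists.

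More than 1 separate promoter peak was called in at least 1 replicate at 5 of the 9 bound genes (TGFBR1, ACVR1, ACVR1B, TGFBR2 and BMPR2), against 63% of protein-coding targets, and at TGFBR3 in A. At TGFBR1 the 2 peaks of B1 and B2 merged into a single peak of 1514 bp in A. The upstream TGFBR1 peak was enriched 8.75-fold in B1 and 9.88-fold in B2, with 45 fragments (32.8 to 60.2) and 44 (32.0 to 59.1), and its summit lay 396 and 405 bp upstream of the canonical TSS. ACVR1B showed the same layout, with 1 peak of 1074 bp in A and a weaker upstream peak in B1 (fold enrichment 8.44) and B2 (4.09). At TGFBR2 the upstream peak was separate in A (7.73) and B1 (4.78) and merged in B2, and a further peak with its summit 841 and 798 bp downstream of the TSS was separate in B1 (7.04) and B2 (6.73).

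Peak width also differed among the receptor genes. The strongest peak of BMPR1A was 1944, 1867 and 1938 bp wide in A, B1 and B2, and that of BMPR2 1844, 1794 and 1961 bp, where the median target gene had widths of 814, 712 and 663 bp. Both were above the 98th percentile of width in every replicate. ACVR2B, the kinase receptor with the lowest enrichment, had peaks of 1599, 1629 and 1599 bp, at the width percentiles 95.6, 97.6 and 97.5, and ACVR2A peaks of 1295, 1451 and 1422 bp lay at 87.5, 94.9 and 95.1. The TGFBR1 peak was wider than that of ACVR2A in A (1514 bp, width percentile 94.1) but lay at 67.7 and 57.8 in B1 and B2. ACVR1 lay at 79.0, 69.7 and 72.4, ACVR1B at 73.8, 52.2 and 36.7, and TGFBR2 at 67.7, 46.8 and 79.0. TGFBR3 peaks were narrow, 472 bp in A and 254 bp in B1, at the width percentiles 20.5 and 4.82. The ENG peaks of 846, 690 and 671 bp were close to the median width.

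The study used ChIP for the histone marks H4K20me1 and H3K9me1, followed by quantitative PCR, at the TGFB1, TGFBR1 and TGFBR2 promoters. PHF8 itself was not measured in that assay. The primers listed for the receptor genes were placed on the PHF8 peaks. Both primers of a pair listed under the name gTGFB1 matched the TGFBR1 promoter exactly and enclose 70 bp (chr9:101867016-101867085), from 379 to 310 bp upstream of the canonical TSS in an intron of a longer transcript. The amplicon is shown with the primer sites in capitals.
TGFBR1 amplicon: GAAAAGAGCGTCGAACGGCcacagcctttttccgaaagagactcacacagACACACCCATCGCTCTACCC
The amplicon lay within a PHF8 peak in 3 of 3 replicates. It was inside the upstream, weaker TGFBR1 peak in B1 and B2, whose summits were 51 and 60 bp upstream of its centre, and the strongest summit of the promoter was 482, 482 and 480 bp downstream of it. Of the TGFBR2 primer pair, listed under the name gTGFB2, the reverse primer matched exactly at chr3:30648621-30648640. The forward primer had no exact match near TGFBR2, so no TGFBR2 amplicon was placed.

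Most receptor genes have several annotated TSSs, and PHF8 was found at those clustered near the canonical one. The 10 genes have 72 distinct TSSs, of which 35 (48.6%) had a PHF8 peak within 1 kb in all 3 replicates, against 44.7% of the distinct TSSs of all protein-coding genes. A further 4, all of TGFBR3, had a peak in 2 replicates and 33 had none. TSSs of one gene are close together and are not independent. All 5 TSSs of BMPR1A were bound, as were 6 of 12 for TGFBR1, 8 of 17 for ACVR1, 5 of 7 for ACVR1B, 4 of 5 for ACVR2A, 2 of 3 for BMPR2 and for ACVR2B, 2 of 5 for ENG and 1 of 5 for TGFBR2. The unbound TSS nearest to a bound promoter was an ACVR1B TSS 1681 bp downstream of the canonical TSS. The TGFBR3 TSS 20184 bp upstream of the canonical one had no peak in any replicate, and neither had the 6 TGFBR1 TSSs that start 22662 bp or more downstream.

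Most bound TSSs of the receptor genes lay in CpG-rich sequence and most unbound TSSs did not. A TSS was called CpG-island-like when the sequence within 250 bp on either side had a CpG ratio (observed over expected) of 0.6 or more and a GC content of 50% or more. Of the 35 TSSs bound in all 3 replicates, 29 were CpG-island-like, as were the 4 TSSs of TGFBR3 bound in 2 replicates and 1 of the 33 unbound TSSs. Over all protein-coding genes, 84% of CpG-island-like TSSs and 11.2% of other TSSs were bound in all 3 replicates. The median GC content was 77.8% at TSSs bound in all 3 replicates and 41.7% at unbound TSSs, and the median CpG ratio 0.915 and 0.209.

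The exceptions were few. The unbound CpG-island-like TSS was that of an ACVR1 transcript without a defined coding sequence, 111893 bp downstream of the canonical TSS, with 50.9% GC and a CpG ratio of 0.763. The 6 bound TSSs that were not CpG-island-like were those of TGFBR1 1075 and 1043 bp upstream of the canonical TSS, those of ACVR1 1265 and 1219 bp downstream, and both bound TSSs of ENG. At TGFBR1 and ACVR1 these TSSs were reached by a peak over the neighbouring island-like TSSs. In B1 and B2 the separate upstream TGFBR1 peak also lay within 1 kb of the TGFBR1 TSSs and nearer to them. ENG was the only receptor gene bound in all 3 replicates without any CpG-island-like TSS, with 71.1% GC but a CpG ratio of 0.446 at its canonical TSS.

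**Figure D4:**
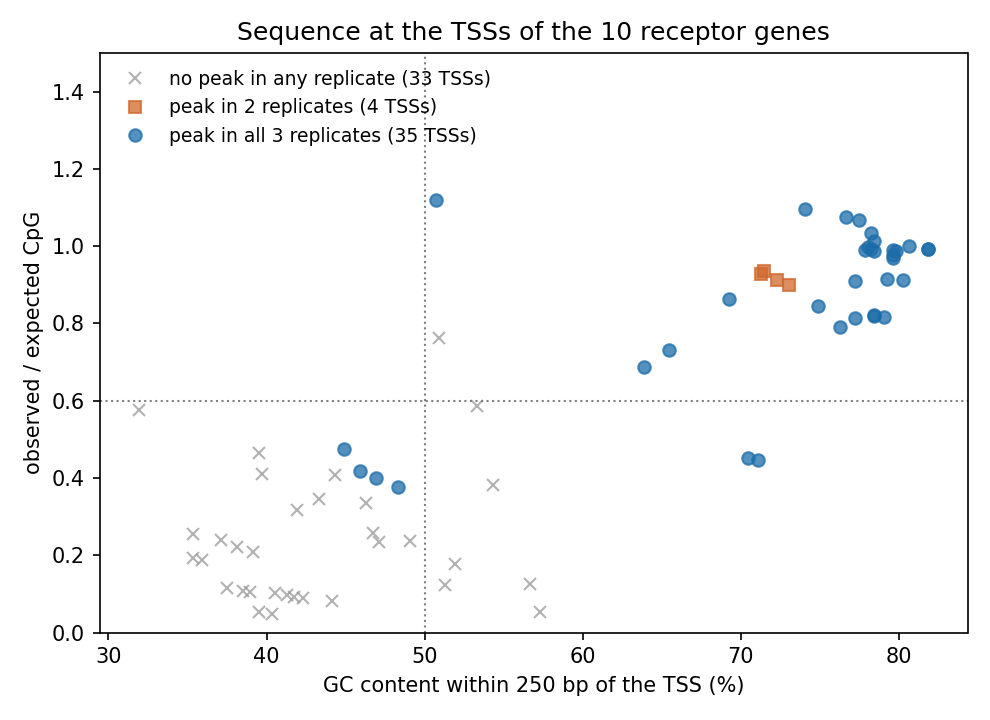
GC content in percent against the observed over expected CpG ratio within 250 bp of each of the 72 distinct TSSs of the receptor genes; circles mark TSSs with a PHF8 peak in all 3 replicates, squares those with a peak in 2 and crosses those with none, and dotted lines mark 50% GC and a ratio of 0.6. Of the 33 crosses, 1 lies above both dotted lines, and the 2 circles at about 71% GC and 0.45 are the ENG TSSs.

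Short promoter motifs were counted in the 300 bp around the canonical TSS (250 bp before and 50 bp from it on) and in 19894 protein-coding promoters of the same length, on both strands, with no motif containing another. The GC box GGGCGG was present in 7 of 10 receptor promoters, with 5 matches each in BMPR1A and ACVR2B, and in 61.4% of all promoters; TGFBR1, ACVR2A and ENG had none. The CCAAT box CCAAT was present in TGFBR1 (2 matches), ACVR1, BMPR1A and TGFBR2, and in 36.0% of all promoters. No receptor promoter held a TATA box TATAAA (9.62% of all promoters), a CRE TGACGTCA (2.68%), an ETS core CCGGAAG (14.1%) or the SMAD palindrome GTCTAGAC (0.191%). ACVR1B alone held the E-box CACGTG, found in 8.76% of all promoters.

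Outside promoters, PHF8 peaks were found in the gene record of 1 of the 10 receptor genes, counting peaks of any single replicate. They formed a single region with a peak in all 3 replicates outside every TSS window, in an intron of ENG (chr9:130600530-130601314). At least 1 such region was found in 2.09% of protein-coding genes. PHF8 was enriched there 21.7-fold, 19.7-fold and 12.4-fold, with 74 fragments (58.1 to 92.9), 68 (52.8 to 86.2) and 45 (32.8 to 60.2). In B1 the intronic peak was higher than the ENG promoter peak (15.0), and in A and B2 it was lower (26.9 and 13.2). The summits lay 15917, 15880 and 15947 bp downstream of the canonical TSS, at least 8393 bp from any ENG TSS and at least 2444 bp from any annotated TSS, the nearest being that of the 5S ribosomal RNA pseudogene RNA5SP296. The sequence at the summit of A, which holds 4 CpG dinucleotides in 101 bp, is shown for comparison with the promoter summits (chr9:130600970-130601070).
ENG intronic summit: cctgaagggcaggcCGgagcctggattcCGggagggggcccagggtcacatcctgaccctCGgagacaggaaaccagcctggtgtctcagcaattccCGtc
The region was rich in GC (62.9%, 63.1% and 63.1% within 250 bp of the summits of A, B1 and B2) but its CpG ratio of 0.283, 0.301 and 0.261 was within the range of the unbound TSSs of the family (0.0493 to 0.763). Within 100 kb of the canonical TSS but outside the gene record, a region of this kind was found 81646 bp from that of ACVR1B and 45102 bp from that of BMPR1A. ENG had only its intronic region within that distance, and the other 7 genes had none.

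**Figure D5:**
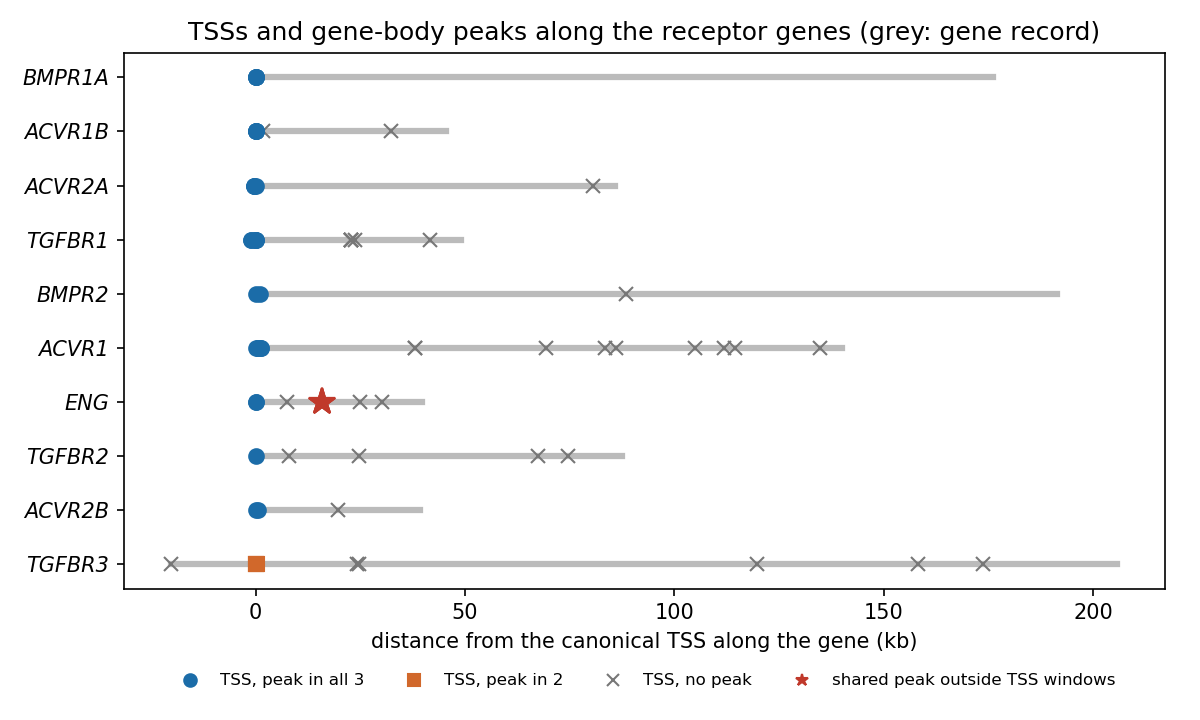
Distinct TSSs of the receptor genes by distance from the canonical TSS along the gene in kb, with the gene record in grey; circles mark TSSs with a PHF8 peak in all 3 replicates, squares in 2, crosses none, and the star the region bound in all 3 replicates outside TSS windows. Circles lie at the start of 9 genes and squares at that of TGFBR3, crosses spread along the gene bodies, and the star lies in ENG 15917 bp from the canonical TSS in A.

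The rest of the pathway was looked up in the same way, with 60.2% of protein-coding genes as the background. Of the other kinase receptors, ACVR1C (21.8-fold, 14.3-fold and 12.8-fold), a receptor for activin and Nodal ligands, and BMPR1B (12.1-fold, 7.16-fold and 7.23-fold), a BMP receptor, were bound in all 3 replicates. ACVRL1, the endothelial type I receptor ALK1, and AMHR2, the receptor for anti-Müllerian hormone, had no promoter peak in any replicate. Both bound genes had lower fold enrichments than the 4 type I receptors described above in every replicate. Of 7 other co-receptors and pseudoreceptors, 5 were bound in all 3 replicates (BAMBI, RGMB, HJV, TGFBR3L and NRP1) and TDGF1 and RGMA were not. All 10 regulators that bind or modify the receptors (FKBP1A, STRAP, ZFYVE9, ZFYVE16, TGFBRAP1, SMURF1, SMURF2, USP15, SMAD6 and SMAD7) and all 6 signal-carrying SMADs were bound in all 3 replicates. Of 11 ligands, 7 were bound in all 3 replicates, GDF15 had a peak in 2 and BMP6 in 1, and INHBB and BMP7 had none.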

How the data were processed

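PHF8 ChIP-seq peak lists of 3 replicates from SKMEL-147 cells were analysed. The 2 inputs enter only through the peak caller's values. The authors mapped reads to hg19 (Bowtie2, default parameters) and ran MACS in its narrow mode for every replicate on its own, with input as control; Picard and bcl2fastq are also named in the submitters' processing notes. Tool versions, read totals and the handling of duplicates are not given in the sources used here. The deposited fold enrichment is a linear ratio of fragments to background at the summit, with the same constant added to both. It is therefore lower than the plain ratio of the fragments and background printed here. The deposited p-value and q-value are −log10 values, the latter adjusted over candidate positions by the authors' caller. The deposited score was not used. All listed peaks were kept, and the largest q-value was 0.0482.

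TSSs were the 5′ ends of all GENCODE v44lift37 transcripts (221328 gene and TSS pairs), and 0 peaks ran past a chromosome end of GRCh37. A gene was bound where a peak overlapped a 1 kb TSS window by at least 1 bp. Where several peaks did, the one with the highest fold enrichment was the strongest. Fragments were recovered as the whole number n for which fold enrichment and p-value match, within 0.001 on the log10 p scale. For this, fold enrichment was taken as fragments plus 1 over background plus 1. The distance to a TSS is signed along the gene, and the canonical TSS is that of the annotation's canonical transcript. All p-values computed come from a two-sided exact permutation test over the signs of 3 within-replicate differences. It was run for TGFBR1 against TGFBR2 and for neighbours in the order. All 10 receptors and the genes sharing their promoters were named with values; pathway lists were described by counts, with values for the other kinase receptors only. Members, lists and tests were chosen with earlier results of these data known. The recovery of fragments and the overlap of intervals were tested on simulated data. Python 3.11.15, numpy 2.4.6, scipy 1.17.1, pandas 2.3.3, pysam 0.24.0 and matplotlib 3.10.9 were used. Alternatives covered peak cutoffs, TSS windows and TSS sets, the overlap rule, the measure of strength and leaving out each replicate.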

Additional observations from a re-analysis of the deposited data

How the results depend on the processing

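No paired analysis was possible because there is a single ChIP group and no second group to pair it with; differences between genes were taken within replicates throughout. The 7 results were recomputed under 17 alternatives, which gave 82 values. Of these, 77 kept their direction and moved by no more than 1 SD (for counts and shares, 1.5 times), 5 moved further and 0 reversed. Some values had no room to change, so 77 is not a count of independent checks. Peak cutoffs, windows, TSS sets and the summit rule left the same TGFBR1 and TGFBR2 peaks strongest, and their difference stayed at 0.71. The median percentile of the 10 receptor genes was 53.0 with only peaks of a fold enrichment above 10, where TGFBR3 has no peak left and ACVR2B none in B1. The share of TSSs bound in all 3 replicates was 90% with 1 TSS per gene, which removes the internal TSSs by construction, and 69.8% with TSSs of protein-coding transcripts only. The difference between TGFBR1 and TGFBR2 was 0.90 on the log2 scale with recovered fragments, which are not divided by background. The expected background was higher at the TGFBR1 summit than at the TGFBR2 summit in every replicate. Its share in the change was not tested. As log2 ratios of −log10 q-values it was 1.16, and that between type I and type II medians 0.84. These ratios are of another quantity than fold enrichment, and both were counted as moved by rule. The difference between type I and type II medians could not be computed at a fold enrichment above 10 or with the summit inside the window, since ACVR2B then lacks a value.

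Leaving out each replicate in turn gave 9 to 10 bound genes, a median percentile of 61.1 to 62.2, 48.6 to 54.2% of TSSs bound, 1 gene-body region each time, 5 to 7 genes with a downstream summit, and differences of 0.63 to 0.78 for TGFBR1 and TGFBR2 and 0.48 to 0.61 for the receptor classes. The higher counts came without B2, in which TGFBR3 has no peak and the ACVR2B summit lies upstream of its nearest TSS. BMPR1A and ACVR1B held the first places of the order, and ACVR2B and TGFBR3 the last, under all 17 alternatives. The least number of replicates, the merging of regions and the reference point for distances do not enter this order.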
